A study of Mus musculus with 5 samples.

Results

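The comparison set the liver array of wild-type mice kept on a high-fat diet with nordihydroguaiaretic acid (NDGA) against the liver array of wild-type mice kept on chow, to show which genes remained apart from lean liver although the drug was given. These are 2 of the 5 arrays of the series, chosen by their titles. Of 16637 genes named on the array, 8319 were bright enough to be compared. The NDGA group were C57BL/6 wild-type mice that received high-fat food carrying NDGA at 2.5 g per kg of food for 16 weeks. Another wild-type array, from the high-fat diet without NDGA over the same time, is given beside the others as a value. The lean group were C57BL/6 wild-type mice on chow. The other 2 arrays came from ob/ob mice, which lack leptin, on chow with the same dose of NDGA and on plain chow, and they entered the normalization and the checks. The series' design text gives 3 animals a group as the source of the RNA, and says nothing on pooling, while the labels used give neither sex nor age. With 1 array a group there is no replicate error, so no test was possible, and every difference is between 2 arrays.

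NDGA, a lignan found in creosote bush, is an antioxidant and a lipoxygenase inhibitor. A fat-laden liver packs triglyceride into droplets coated with perilipin and CIDE proteins, and disposes of fatty acids through beta-oxidation in mitochondria and peroxisomes, whose enzymes are induced by the nuclear receptor PPAR-alpha. The mouse liver also has a sex-dependent programme of steroid and drug metabolism set by growth hormone, and obesity is known to disturb it.

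Values are quantile-normalized probe intensities, and a difference is the log2 of NDGA high-fat over chow after 50 was added to each intensity. Each fold is the ratio of intensities with 50 added, so it is smaller than the ratio of the printed readings. The addition keeps values near 0 usable and understates changes in dim genes. Expressed genes are those whose mean over the NDGA high-fat and chow arrays reached the median over all genes, which is an intensity of about 89.9. Deposited medians were 47.0 on the NDGA high-fat array and 38.8 on the chow array, 0.13 apart on the log2 scale with the offset. In 922 genes with at least 2 bright probes, the SD per probe of the difference was 0.25 on the log2 scale, with r = 0.36 between the probes' differences across genes, which are not independent replicates. The hepatocyte list matched the labelled tissue: 14 of its 16 members on the array were expressed, Alb was saturated on all 3 wild-type arrays, and 0 members were 2-fold apart. Lep read 11.4, 10.1 and 17.5 on the NDGA high-fat, high-fat and chow arrays, near background, so it checks no label.

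Across the liver, 69 genes read at least 2-fold higher on the NDGA high-fat array than on chow, which is 0.829% of the 8319 expressed genes, and 54 read at least 2-fold lower, which is 0.649%. The same genes counted between the high-fat and chow arrays gave 169 higher (2.03%) and 113 lower (1.36%). Most genes lay close together: 90.8% of the differences between NDGA high-fat and chow were within 0.5 log2 units, and the median was -0.02. Taken both ways, 123 genes (1.48%) were apart with NDGA and 282 (3.39%) with high-fat alone. In 12 of the 123 the probe was bright on a single array, 4-fold or more over each of the other 4. Among the genes just past the 2-fold line were Sulf2 at 1.02 and Ubl7 at -1.01, and just short of it were Plin4 at 0.99 and Ces2a at -0.99.

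**Figure D1:**
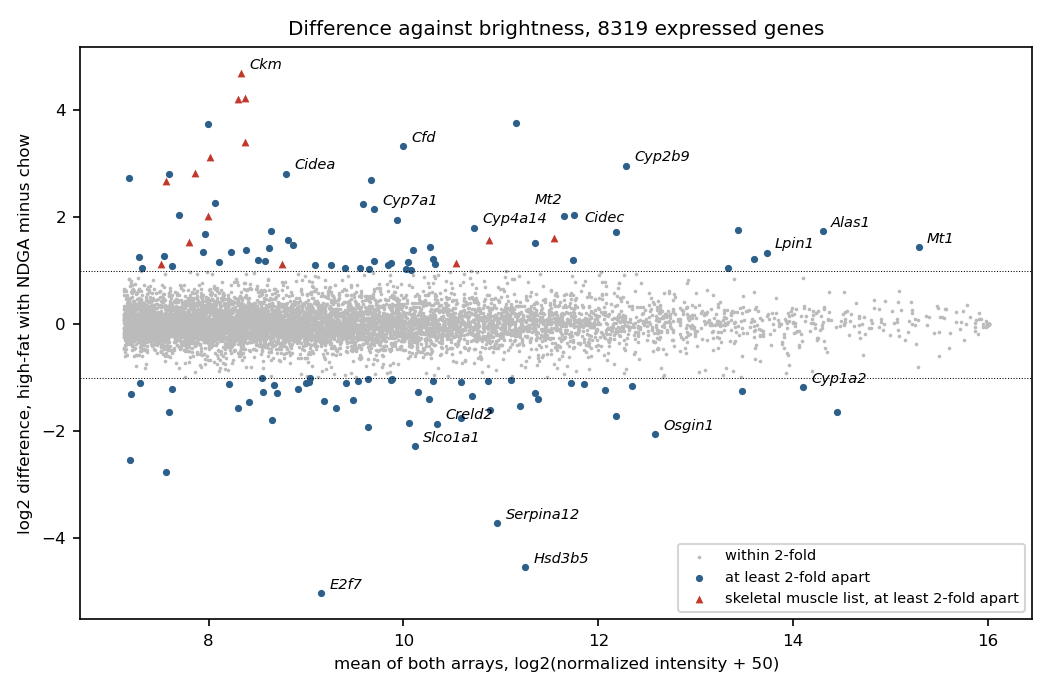
Log2 difference between the NDGA high-fat and chow arrays (vertical axis) against mean brightness of both arrays on the log2 scale (horizontal axis); each point is 1 of 8319 expressed genes, dotted lines mark 2-fold, and triangles are the skeletal muscle list genes at least 2-fold apart. Differences reach 4.69 for Ckm and -5.03 for E2f7, and these muscle genes all lie above the upper line.

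Lipid storage genes Cidea, Cidec and Mogat1 stayed above chow with NDGA. Of 16 expressed members of the lipid droplet list, 3 read 2-fold or more above chow and 0 below, with a list median of 0.44 against -0.02 over all genes. Cidea, which promotes fusion of lipid droplets, read 1127 on the NDGA high-fat array, 488 on high-fat and 118 on chow. With 50 added, it was 7.02-fold higher with NDGA than on chow (log2 difference 2.81, against 1.68 for high-fat alone). Its relative Cidec read 6915, 6606 and 1654 in the same order, a difference of 2.03 with NDGA and 1.97 without. Both high-fat arrays were well above chow for Cidec and hardly apart from each other.

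Mogat1, an enzyme that makes diacylglycerol, read 397, 320 and 88.4 on the NDGA high-fat, high-fat and chow arrays (log2 difference 1.69 with NDGA against chow). Plin4, a droplet coat protein, read 173, 220 and 61.8, just under 2-fold at 0.99. Fitm2, a membrane protein needed for droplet budding, was at 0.76 (0.40 as the mean of its 2 probes). Of the 16 genes, 15 lay above 0, and G0s2, an inhibitor of the lipase ATGL, lay below at -0.46.

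In the triglyceride synthesis list 2 of 12 expressed members were at least 2-fold higher, Mogat1 and Lpin1, and the list median was 0.00. Lpin1, a phosphatidate phosphatase that also coactivates PPAR-alpha, read 21510 with NDGA, 12458 on high-fat and 8486 on chow (1.34, or 1.01 as the mean of its 2 probes). Dgat2, which adds the last fatty acid to triglyceride, was at -0.45. Vldlr, a receptor that takes up triglyceride-rich lipoproteins, read 489, 409 and 157 (1.38). Lpl, the lipoprotein lipase, was at 0.99 but at 0.50 averaged over its probes.

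Some PPAR-alpha target genes were also above chow, while the receptor itself read much as on chow. Ppara had 673 on the NDGA high-fat array, 854 on high-fat and 682 on chow, a difference of -0.02 with NDGA. Of 19 expressed members of the PPAR-alpha target list, 3 read 2-fold or more above chow and 0 below. They were Cyp4a14, Fabp3 and Ehhadh, which is counted again among the peroxisomal genes below. Of the 19, 13 lay above 0 and 6 below (median 0.24), and Fgf21 was lowest at -0.42. Cyp4a14, a fatty acid omega-hydroxylase, read 3121, 1396 and 859, or 3.49-fold above chow (1.80, against 0.67 for high-fat alone). Vnn1, a pantetheinase, read 159, 79.3 and 65.1 (0.86). Fabp3 (2.67) also counted here, but it is a fatty acid binding protein of muscle and heart, and muscle genes as a list were brighter on the NDGA high-fat array, as described further on. Its part in this list was not tested.

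Peroxisomal beta-oxidation had a median of 0.49 over 24 expressed genes, of which 2 were 2-fold or more higher and 0 lower. Ehhadh, the bifunctional enzyme of the pathway, read 724 with NDGA, 257 on high-fat and 212 on chow (1.56). High-fat alone thus lay near chow for Ehhadh, at 0.23, and the NDGA array stood apart. Abcd2, a peroxisomal transporter of very long fatty acids, was at 1.13 (0.73 averaged over its probes), and Acot3, a peroxisomal thioesterase, at 0.99. Pex11a, a factor of peroxisome division, was at 0.91 and Decr2, an auxiliary enzyme for unsaturated fatty acids, at 0.89, less than the 1.29 of high-fat alone.

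Mitochondrial beta-oxidation lay closer to chow: 0 of 18 expressed genes were 2-fold apart, but the median was 0.34. Cpt1a, which gates entry of fatty acids into mitochondria, read 142 with NDGA, 64.3 on high-fat and 75.4 on chow (0.62, against -0.13 for high-fat alone). Hadha, a subunit of the trifunctional protein, read 1062, 632 and 612 (0.75). For both genes the high-fat array lay with chow. Hadh (0.86 with NDGA, 1.38 without) was instead nearer to chow with NDGA than without. Acadl (0.69 and 0.91) and Cpt2 (0.49 and 0.63) differed little between the high-fat arrays. Oxidative phosphorylation subunits, which work downstream in the respiratory chain, had a median of 0.09 over 41 genes, and 0 were 2-fold apart.

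**Figure D2:**
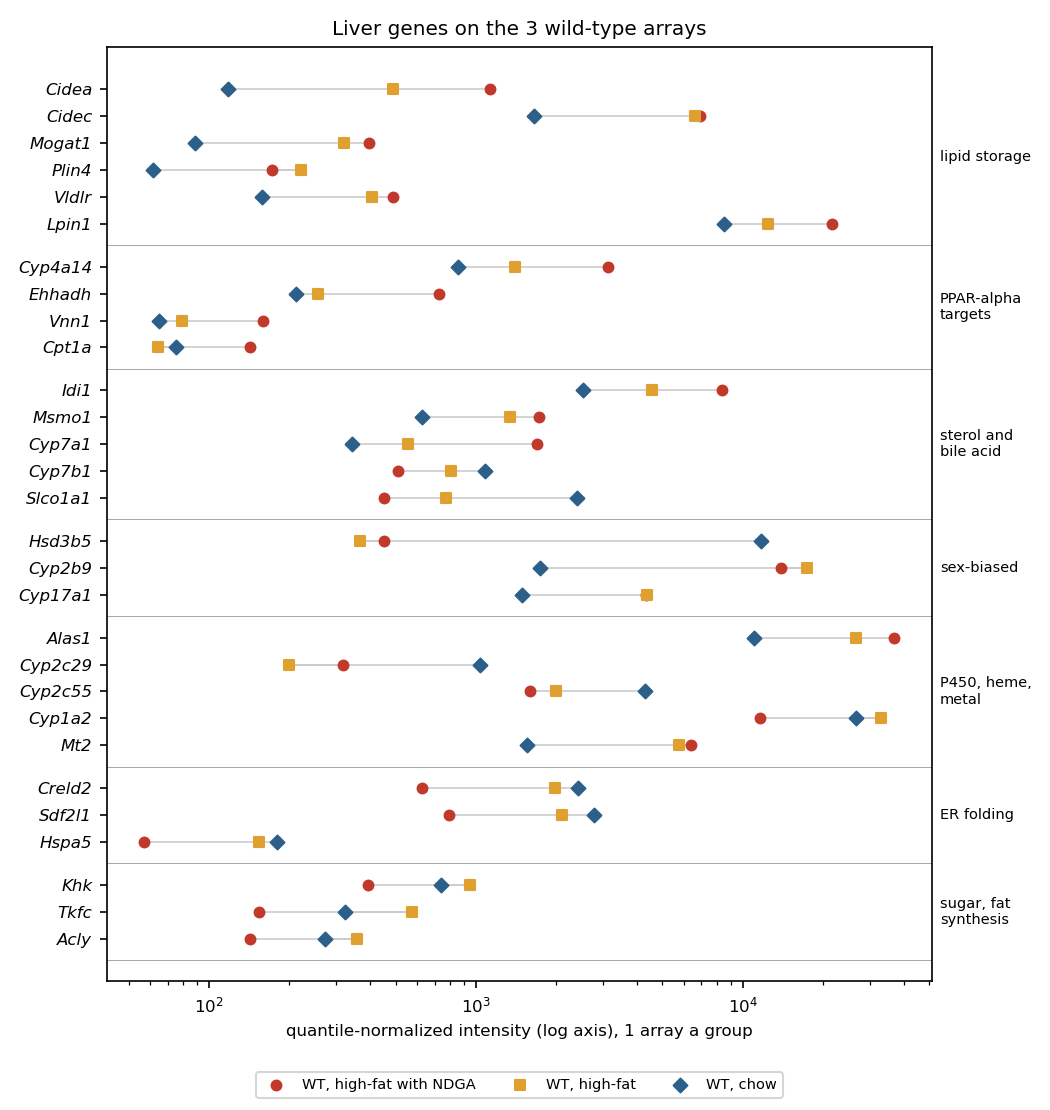
Quantile-normalized intensities (log axis) of 29 named genes on the 3 wild-type arrays, 1 point an array, grouped by role. Circles (NDGA high-fat) lie far to the right of diamonds (chow) for Cidea, Cidec, Cyp2b9 and Alas1, and far to the left for Hsd3b5 and Creld2.

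Of the cholesterol synthesis genes, Idi1 and Msmo1 were above chow by more than 2-fold. Of 14 expressed members of this list, which holds targets of the sterol-sensing factor SREBP-2, these were the 2 past 2-fold and 0 read as far below; 11 lay above 0 and 3 below, and the median was 0.48. Idi1, the isopentenyl-diphosphate isomerase, read 8360 with NDGA, 4555 on high-fat and 2511 on chow (1.72). Msmo1, a methylsterol oxidase, read 1725, 1344 and 629 (1.39). Both genes ran in the same order over the 3 arrays, with NDGA highest. Lss, which closes the sterol ring, was at 0.75, Nsdhl, a sterol dehydrogenase, at 0.74 and Cyp51, a sterol demethylase, at 0.63, all below 2-fold. Averaged over their probes, Nsdhl was at 0.45 and Cyp51 at 0.40.

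Bile acid genes lay on both sides of chow, with a median of -0.01 over 21 expressed members, 1 at least 2-fold higher and 2 lower. Cyp7a1, which starts and limits the conversion of cholesterol to bile acids, read 1698 with NDGA, 554 on high-fat and 343 on chow, 4.44-fold above chow (2.15). Cyp7b1, of the alternative pathway, read 509, 804 and 1083 (-1.02, or -0.94 without normalization). Slco1a1, a male-biased uptake transporter of organic anions, read 452, 772 and 2397 (-2.28, or -1.59 as the mean of its 2 probes). Cyp2c70, which makes the muricholic acids of mice, was at -0.98, and Abcb11, the bile salt export pump, at -0.46.

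Fatty acid synthesis did not stand above chow as a list: the median was -0.10 over 19 expressed genes, with Aacs, an acetoacetyl-CoA synthetase, the member at least 2-fold higher (1.15). Hk1 (0.79) and Pgam1 (0.21), of glycolysis, lay above chow, and the glycolysis and fructose list had a median of -0.04 over 10 expressed genes. Some single genes read lower with NDGA than on either other array. Acly, which makes cytosolic acetyl-CoA, read 142 with NDGA, 360 on high-fat and 271 on chow (-0.74). Khk, the fructokinase that starts fructose metabolism, read 393, 950 and 740 (-0.83), and Tkfc, a later kinase of that pathway, read 154, 574 and 323 (-0.87). Mlxipl, which encodes the carbohydrate sensor ChREBP, was at -0.55. None of these 4 genes reached 2-fold, and for each the high-fat array was above chow (0.35, 0.34, 0.74 and 0.21). The desaturases for polyunsaturated fatty acids Fads2 (0.82) and Fads1 (0.62) were on the other side.

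In sugar metabolism, Hk2, a hexokinase scarce in normal liver and abundant in muscle, read 340 with NDGA, 299 on high-fat and 104 on chow (1.34). G6pc, the last enzyme of glucose release, read 30155, 27296 and 52637 (-0.80), and Pck1, the gluconeogenic carboxykinase, 841, 627 and 1231 (-0.52). Both remained below chow with NDGA, as they were on high-fat alone (-0.95 and -0.92). G6pc differed little between the high-fat arrays. Among 13 expressed genes of glucose production and glycogen 0 were 2-fold apart. The insulin and leptin signalling list (7 expressed) and the IGF list (10 expressed) likewise had 0 genes 2-fold apart, with Socs3, a feedback inhibitor of cytokine and leptin signals, at -0.53 and Igf1 at -0.38.

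Creld2, Sdf2l1 and Hspa5, folding factors of the endoplasmic reticulum, were lower with NDGA than on chow. Of 18 expressed genes of this list, 3 read 2-fold or more below chow and 0 above, while 14 lay below 0 and 4 above (median -0.39). Creld2, a stress-induced folding factor, read 630 with NDGA, 1984 on high-fat and 2420 on chow, 3.63-fold below chow (-1.86). Sdf2l1, a partner of the chaperone BiP, read 791, 2100 and 2780 (-1.75). Hspa5, which encodes BiP, read 57.2, 154 and 180 (-1.10, or -0.99 without normalization). For these 3 genes the high-fat array lay close to chow, between -0.17 and -0.40. Hsp90b1 (-0.67) and Pdia3 (-0.66) were lower by less. Ero1b, an oxidase of disulfide bond formation that was outside the lists and chosen after its values were seen, was at -1.60.

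Genes of this kind are known to carry an endoplasmic reticulum stress element, spelled CCAAT, 9 bases N and CCACG, which is bound by NF-Y and ATF6. The 250 bases before the RefSeq start were searched on both strands. The element occurred there in 35 of 27025 genes with a promoter entry (0.130%), and in 4 of the 15 expressed list members that had an entry, which were Hspa5, Hsp90b1, Canx and Creld2. Canx, a lectin chaperone, was at 0.27, so a match did not go with a lower reading in every gene. Sdf2l1 (-1.75) and Pdia3 (-0.66) held 0 matches, so not every lower gene had one. A match is a description of letters and not a shown site. The 3 genes with a match that read lower are printed 5′ to 3′ from GRCm38.p6 with the element or its reverse complement in capitals. They are Hspa5 from chr2:34771840-34772089 on the plus strand, Creld2 from chr15:88819396-88819645 on the plus strand and Hsp90b1 from chr10:86705445-86705694 on the minus strand.
Hspa5: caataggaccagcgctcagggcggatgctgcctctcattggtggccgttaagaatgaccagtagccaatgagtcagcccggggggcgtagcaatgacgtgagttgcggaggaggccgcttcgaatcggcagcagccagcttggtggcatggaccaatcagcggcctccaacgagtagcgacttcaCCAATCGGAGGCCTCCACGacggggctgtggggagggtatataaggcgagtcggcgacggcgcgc
Creld2: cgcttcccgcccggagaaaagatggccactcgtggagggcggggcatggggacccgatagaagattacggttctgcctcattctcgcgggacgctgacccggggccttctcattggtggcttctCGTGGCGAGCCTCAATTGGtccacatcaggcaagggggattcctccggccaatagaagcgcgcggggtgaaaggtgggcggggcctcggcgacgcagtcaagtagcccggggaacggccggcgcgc
Hsp90b1: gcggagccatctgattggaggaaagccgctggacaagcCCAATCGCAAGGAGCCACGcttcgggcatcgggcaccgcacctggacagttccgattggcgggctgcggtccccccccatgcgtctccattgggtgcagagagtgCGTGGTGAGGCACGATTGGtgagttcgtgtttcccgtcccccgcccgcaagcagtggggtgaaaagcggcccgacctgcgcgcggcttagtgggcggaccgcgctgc

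Metallothioneins, small proteins that bind zinc and copper, stayed well above chow. Mt2 read 6400 with NDGA, 5751 on high-fat and 1551 on chow (2.01). Mt1 read 65866, 42061 and 24248. Its probe was saturated on the NDGA high-fat array, so Mt1 was at least 2.71-fold above chow. The other 7 expressed genes of that list, zinc transporters and the metal sensor Mtf1, had 0 members 2-fold apart, and Slc30a7 was lowest at -0.60. The metal response element, with the core TGCACNC or TGCGCNC, is bound by MTF1. Searched in the same 250 bases on both strands, counting overlapping matches, it occurred in 6420 of the 27025 genes (23.8%) and at least 3 times in 395 genes (1.46%). Within these 250 bases Mt2 held 3 matches, none overlapping, and Mt1 held 1. Bases outside this window, which depends on the RefSeq start, were not searched, so these are not counts for the whole promoter. The zinc exporter Slc30a10 also held 3 and was at -0.50. The 250 bases before the RefSeq start of Mt1 and Mt2 are shown because both genes lay above chow on both high-fat arrays. They are Mt1 from chr8:94178839-94179088 and Mt2 from chr8:94172368-94172617, plus strand, GRCm38.p6, with each core or its reverse complement in capitals.
Mt1: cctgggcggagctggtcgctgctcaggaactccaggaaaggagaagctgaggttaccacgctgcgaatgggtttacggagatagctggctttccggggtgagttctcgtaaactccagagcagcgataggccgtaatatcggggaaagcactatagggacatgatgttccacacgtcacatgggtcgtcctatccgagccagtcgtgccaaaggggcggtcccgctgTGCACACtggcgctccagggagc
Mt2: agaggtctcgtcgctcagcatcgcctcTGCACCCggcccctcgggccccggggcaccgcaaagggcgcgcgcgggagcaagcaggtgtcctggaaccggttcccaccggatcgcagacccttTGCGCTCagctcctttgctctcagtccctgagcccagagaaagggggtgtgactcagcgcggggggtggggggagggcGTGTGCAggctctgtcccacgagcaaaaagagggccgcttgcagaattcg

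Some sex-biased liver genes also stood apart from chow with NDGA. Hsd3b5, a male-specific steroid enzyme, read 453 with NDGA, 367 on high-fat and 11690 on chow, or 23.4-fold below chow (-4.55). Its reading on the ob/ob chow arrays was also low, 231 with NDGA and 248 without, so the probe was far brighter on the wild-type chow array than on the other 4. Of the male-biased list, 4 of 16 expressed members read at least 2-fold lower and 0 higher, with a median of -0.65 (-0.40 when dim genes were kept). They were Hsd3b5, Slco1a1, Cyp7b1 and Alas2, which is at the same time an erythroid gene. Ugt2b1, a glucuronosyltransferase, was at -0.86 and C6, a complement component, at -0.91 (-0.47 as the mean of its 2 probes).

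Of the female-biased list, 4 of 19 expressed members read at least 2-fold higher and 0 lower. The higher ones were Cyp2b9, Cyp17a1, Fmo1 and Abcd2 (1.13, or 0.73 averaged over its probes). Members lay on both sides of chow, 12 above 0 and 7 below, and the list median was 0.28. That median was 0.020 when dim genes were kept and 0.95 when only genes past the 75th percentile were. Cyp2b9, a female-biased cytochrome P450, read 13905 with NDGA, 17467 on high-fat and 1743 on chow, 7.78-fold above chow (2.96). Cyp17a1, a steroid hydroxylase, read 4355, 4393 and 1489 (1.52). Fmo1, a flavin monooxygenase, read 5155, 4620 and 2210 (1.20). For Cyp2b9, Cyp17a1 and Fmo1 the NDGA and high-fat arrays lay together and apart from chow.

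Drug-metabolizing enzymes other than the sex-biased ones were mixed. Alas1, the first and controlling enzyme of heme synthesis, read 36889 with NDGA, 26654 on high-fat and 11046 on chow (1.74). Among 19 expressed genes of cytochrome P450 families 2 and 3, 1 was at least 2-fold higher, Cyp2b9, and 3 lower. Cyp2c29, an epoxygenase induced through the receptor CAR, read 316, 200 and 1040 (-1.57), and both its bright probes were below chow by at least 2-fold (-1.57 and -1.38). Cyp2c55 read 1597, 1987 and 4299 (-1.40). Cyp2c23 was at -1.28, or -0.70 averaged over its probes. Of 11 expressed targets of the receptors CAR, PXR and AHR, 1 was at least 2-fold higher, Alas1, and 3 were lower, Cyp2c29, Cyp2c55 and Cyp1a2.

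Cyp1a2, the main P450 of liver under control of the aryl hydrocarbon receptor, differed from high-fat alone: it read 11641 with NDGA, 32819 on high-fat and 26502 on chow (-1.18). Of conjugating enzymes, Nat2, an acetyltransferase, was at least 2-fold higher (1.11), and Ces2a, a carboxylesterase, was at -0.99, out of 22 expressed. Glutathione transferases had 0 of 16 genes 2-fold apart. Osgin1, an NRF2-responsive growth inhibitor, read 2961, 8397 and 12437 (-2.05) and was the 1 member at least 2-fold apart among 26 expressed NRF2 and antioxidant genes. Srxn1 and Gstm3, further NRF2 targets, were at 0.51 and 0.45, against 1.63 and 1.65 on high-fat alone. The lipoxygenase and eicosanoid list holds lipoxygenases, which NDGA inhibits, beside other eicosanoid genes and receptors. It had 0 of 17 expressed genes 2-fold apart. Ptger1, a prostaglandin E receptor, was at 0.64, and the lipoxygenases Alox12 and Alox5 were at 0.53 and -0.29.

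Macrophage and Kupffer cell markers did not lie above chow with NDGA. Of 16 expressed markers, 0 were 2-fold apart and the median was -0.19, whereas the median between the high-fat and chow arrays was 0.71 and 6 markers were at least 2-fold higher. In bulk liver, fewer cells of a type and less RNA per cell cannot be told apart. C1qb, a complement subunit made by macrophages, read 1298 with NDGA, 2934 on high-fat and 1650 on chow (-0.33). Clec4f, a receptor of resident Kupffer cells, read 557, 813 and 779 (-0.45), and Vsig4, another Kupffer cell receptor, 1622, 2279 and 2220 (-0.44). Marco, a scavenger receptor, was the exception and read 314, 400 and 140 (0.94). The summed intensity of all 28 markers on the array was 10863 with NDGA, 20297 on high-fat and 12591 on chow.

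**Figure D3:**
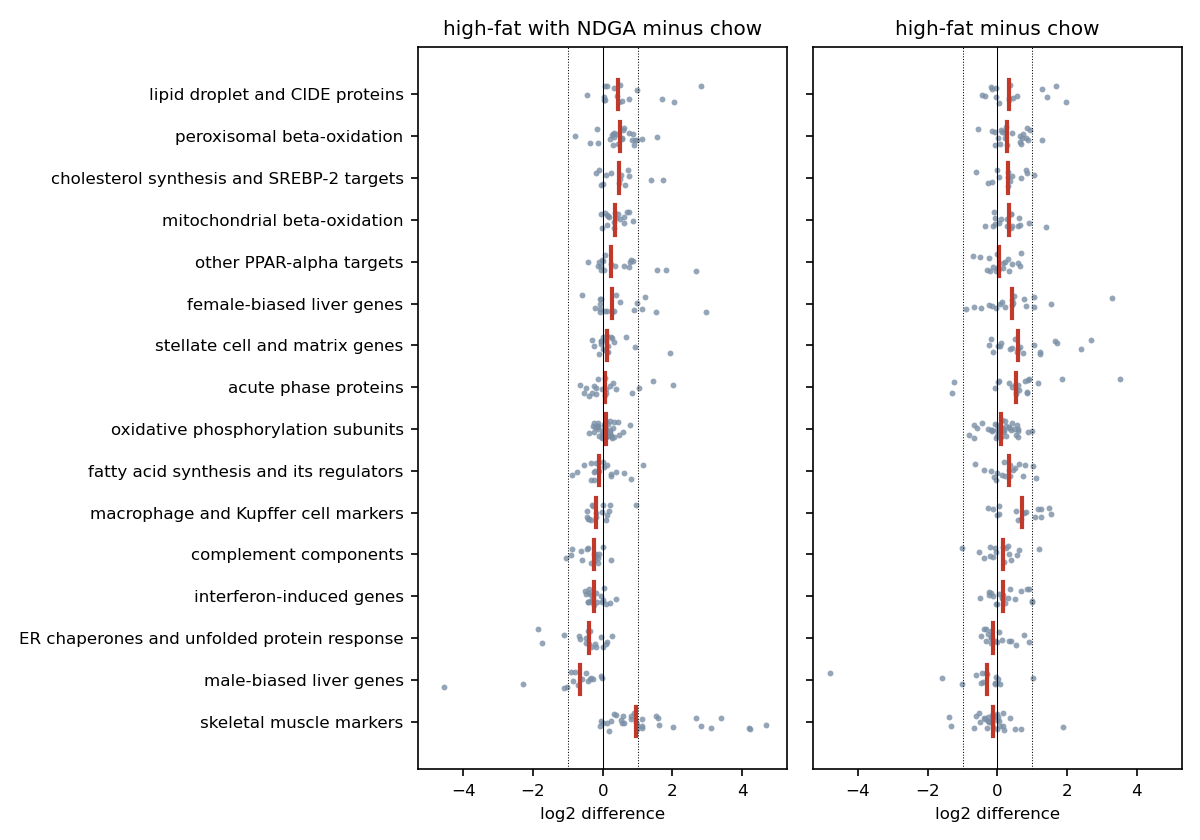
Log2 differences of expressed members of 16 gene lists, NDGA high-fat minus chow (left) and high-fat minus chow (right); each point is a gene, the vertical bar is the list median and dotted lines mark 2-fold. Both panels share the chow array. The macrophage median lies at -0.19 on the left and 0.71 on the right, and the lipid droplet median at 0.44 and 0.33.

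Matrix genes with NDGA lay between chow and high-fat alone. Of 20 expressed stellate cell and matrix genes, 1 was at least 2-fold higher with NDGA (median 0.11), against 7 on high-fat alone (median 0.58). Col1a2 read 209 with NDGA, 664 on high-fat and 86.2 on chow (0.93 with NDGA, 2.39 without). Col3a1 read 377, 1693 and 219 (0.66 and 2.69, with 0.30 for NDGA as the mean of its 2 probes). Both collagen genes remained above chow but far below the high-fat array. Acta2, the smooth muscle actin, stood out at 1.94 (1868, 983 and 451), but on 1 of its 4 probes; the mean of its probes was 0.40.

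Acute phase proteins had a median of 0.05 over 21 expressed genes, with Mt2, Mt1 and Lcn2 at least 2-fold higher and 0 lower. Lcn2, an iron-binding protein, read 178 with NDGA, 1221 on high-fat and 60.6 on chow. With 50 added to each reading, it was 2.06-fold above chow with NDGA (1.04) and 11.5-fold on high-fat alone (3.52). Anxa2, a membrane-binding protein of activated cells, followed the same order with 1874, 5512 and 775 (1.22). Fgb and Fgg, which encode fibrinogen chains, were at -0.66 and -0.49. Apcs, the serum amyloid P component, was at 0.84 with NDGA and 0.06 without.

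Other immune lists and the coagulation and endothelial lists read slightly below chow. So did the hepatocyte list (median -0.16, 10 of 14 expressed members below 0) and the housekeeping list (median -0.11), so a slight lowering was not particular to immune genes. Complement components had a median of -0.25 over 17 expressed genes, with C1ra at least 2-fold lower (-1.06, or -0.62 as the mean of its probes), C6 at -0.91 and C9, the pore-forming component, at -0.89. Interferon-induced genes had a median of -0.26 over 20 expressed, and 0 were 2-fold apart; Isg15, a ubiquitin-like protein, read 302 with NDGA, 702 on high-fat and 418 on chow (-0.41). MHC and antigen presentation genes had a median of -0.19, with H2-Eb1 at -0.42. Coagulation factors had a median of -0.20, with Serpind1 at -0.68 and F10 at -0.62. Markers of sinusoidal endothelium (median -0.16) and lymphocytes (-0.10) had 0 genes 2-fold apart.

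Serpina12, which encodes the adipokine vaspin, read 499 with NDGA, 10572 on high-fat and 7210 on chow, 13.2-fold below chow (-3.73). It read 3330 and 5968 on the ob/ob chow arrays with and without NDGA, so the NDGA high-fat array was the lowest of all. Its other probe was dim on every wild-type array (2.69, 4.48 and 7.0), so the mean of its probes was -1.92. Phlda1, a regulator of cell death, read 512, 844 and 1965 (-1.84), and Foxq1, a forkhead factor, read 167, 185 and 699 (-1.79).

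The 3 largest differences above chow among expressed genes were those of skeletal muscle genes. Of 32 expressed members of the muscle list, 14 read 2-fold or more above chow and 0 below. Thus 14 of the 69 higher genes were muscle genes. The list median was 0.96, or 0.60 when dim genes were kept, against -0.13 between high-fat and chow. Without the filter, 17 of 51 muscle genes and 79 of all 16637 genes were at least 2-fold higher. Of the 14 past 2-fold with the filter, only Fhl1, Pvalb, Tnnc2 and Eno3 were above the cut of 89.9 on chow. The others, Ckm, Cox6a2, Ckmt2, Ryr1, Mylpf, Mb, Fabp3, Myl3, Pgam2 and Tnnt3, passed it through the NDGA high-fat array. The 14 of 32 and the median of 0.96 thus lean on that filter. Ckm, the muscle creatine kinase, read 1589 with NDGA, 13.6 on high-fat and 13.4 on chow (4.69). Cox6a2, a muscle subunit of cytochrome oxidase, read 1384, 20.8 and 26.6 (4.23), and Ckmt2, the mitochondrial creatine kinase of muscle, 1308, 27.7 and 23.8 (4.20). Mylpf, a myosin light chain, was at 3.11 and Mb, myoglobin, at 2.81. Ryr1, the calcium release channel, was at 3.40 on its bright probe but at 1.17 averaged over 3 probes.

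Not every muscle gene was higher: 8 list members, among them Myh4, Myl1 and Neb, were below an intensity of 50 on all 3 wild-type arrays. The summed intensity of the 51 muscle genes on the array was 33934 with NDGA on high-fat, 12228 on high-fat and 14190 on chow, and 14365 and 15589 on the ob/ob chow arrays with and without NDGA. Without the muscle list the higher genes numbered 55. Whether muscle tissue in the sample or expression in liver gave these readings was not tested.

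**Figure D4:**
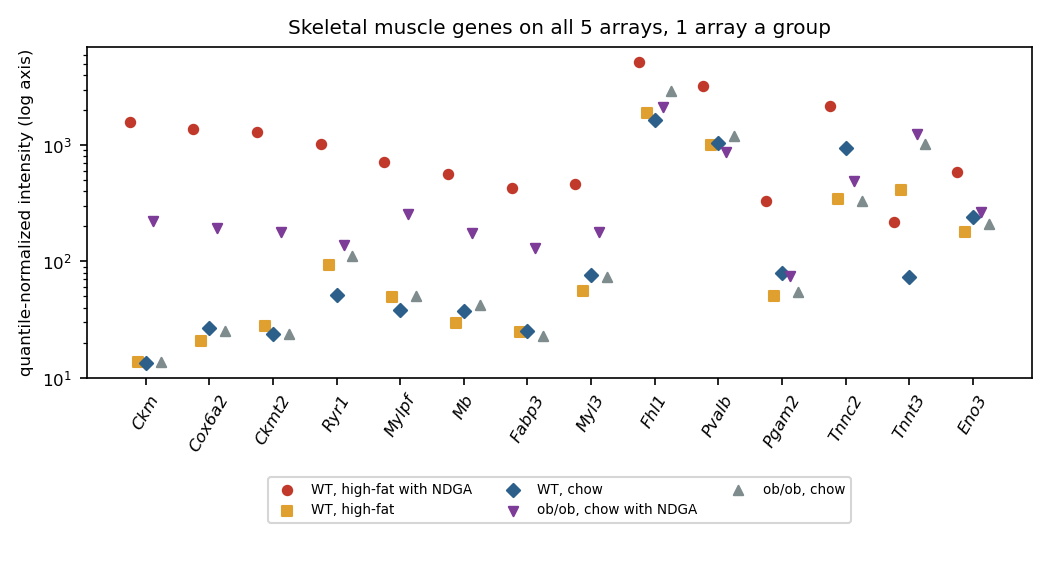
Quantile-normalized intensities (log axis) of the 14 muscle list genes that were at least 2-fold higher on the NDGA high-fat array than on chow, on all 5 arrays, 1 point an array. Ckm, Cox6a2 and Ckmt2 lie between 1308 and 1589 with NDGA on high-fat and at 27.7 or less on both other wild-type arrays.

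Cfd, or adipsin, a serine protease made mainly by fat cells, read 3181 with NDGA, 789 on high-fat and 274 on chow (3.32). The 5 expressed adipocyte markers had a median of 0.99, with 4 above 0 and 1 below, and Cfd and Cidec at least 2-fold higher. The median was 0.14 when dim genes were kept and 0.50 with genes averaged over probes. The summed intensity of the 10 adipocyte markers on the array was 16677 with NDGA, 15367 on high-fat and 8848 on chow. Of those 10, 4 were under 50 on all 3 wild-type arrays. Adipoq, which encodes the fat cell hormone adiponectin, read 63.2, 38.6 and 47.6, highest with NDGA. The droplet coat gene Plin1 read 16.1, 16.6 and 17.7, and Fabp4 read 2.22, 6.06 and 2.09. The part of fat cells in the readings of Cfd, Cidec and Lpl was not tested. Neither pancreas markers nor bile duct markers held a gene 2-fold apart, among 5 and 6 expressed. Of 3 expressed erythroid markers, Alas2 was lower at -1.10.

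Further genes at the extremes rested on a probe bright on a single array. Tmem134, a transmembrane protein, read 8334 with NDGA, 897 on high-fat and 571 on chow (3.76), and Spata2, an adaptor of death receptor signalling, 880, 23.6 and 19.4 (3.75). Nip7, a ribosome assembly factor, was at 2.70 but at 0.94 averaged over 3 probes. On the other side, E2f7, a repressor of the cell cycle, read 49.5, 47.3 and 3197 (-5.03), and Krt5, a keratin of skin, 22.3, 19.4 and 441 (-2.76). Both were high on the wild-type chow array and on none of the other 4. Mc1r, the melanocortin receptor of pigment cells, was not of this kind and was bright on all 3 wild-type arrays, where it read 12678, 7783 and 39520 (-1.64). Of 689 olfactory receptor genes on the array, known for their role in the nose, 180 passed the brightness cut. Of these, 4 were at least 2-fold lower and 0 higher, with a median of 0.16. Over all expressed genes 0.649% were lower and 0.829% higher. Expressed here means brighter than the cut, and whether these probes or that of Mc1r read their own genes was not tested.

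Several lists held a single gene past 2-fold that is described above. It was Vldlr for fatty acid uptake (13 expressed), apolipoproteins (20) and the integrated stress response (11), Alas1 for heme and iron handling (22), and Serpina12 for serpins (17). It was Anxa2 for annexins and S100 proteins (10), Hk2 for glycolysis and fructose metabolism (10) and Lcn2 for neutrophil markers (5). The remaining lists had none. The clock list had 0 of 12 expressed genes 2-fold apart, with Noct, a deadenylase with a daily rhythm, highest at 0.93 and Nr1d1, the repressor REV-ERB-alpha, lowest at -0.58. Cell cycle genes had 0 of 16, with Gadd45g, a stress-induced growth arrest gene, at -0.97. Amino acid breakdown and urea cycle genes had 0 of 33, with Glul, the glutamine synthetase, at 0.85 and Cps1, which makes carbamoyl phosphate, at -0.64. Ribosomal proteins (10 expressed), proteasome subunits (19), housekeeping genes (9), chemokines (8), nuclear receptors and coactivators (17) and alcohol, aldehyde and retinoid dehydrogenases (28) also had 0 genes 2-fold apart.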

How the data were processed

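Liver RNA was labelled with Cy5 and hybridised to Phalanx Mouse OneArray slides, 1 array a group, per the labels' protocols and the series' design text. The authors deposited linear intensities, as their range shows (below 0 to above 65000). Their scanner, background correction and scaling were not given in the sources used here. Of 29922 probes, 21020 had 1 gene symbol, 0 several and 8902 none in the platform annotation; 17558 symbols were current in RefSeq (GRCm38.p6), 3410 were updated through a unique synonym and 52 kept. The 5 arrays were quantile normalized, and log2(intensity + 50) was taken. A gene was represented by its brightest probe over the 5 arrays. Genes saturated (at or above 65000) on both arrays, 13 of 8319, were not ranked. Each array is the only one of its group, so precision is set by the number of arrays and no test was run.

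The members and the 54 gene lists (1368 entries, 1040 genes on the array) were chosen with earlier results of these data known. Named genes are the 15 highest and 15 lowest, genes whose probes agree (2 or more bright probes, each past 2-fold; only Cyp2c29 and Tarbp2, both lower), up to 6 members a list with the largest difference, Lep, Ppara and Hsd3b5; not all are named. Genes outside this rule (Ero1b, Adipoq, Plin1, Fabp4, Alb, Canx, Pvalb, Fhl1, Tnnc2, Eno3, Myl3, Pgam2, Tnnt3, G0s2, Slc30a10, Myh4, Myl1, Neb, Mtf1, Sulf2, Ubl7) were chosen after their values were seen. Alternatives were no normalization, median centring, loess (span 0.3), no filter, the 75th percentile as filter, the mean of probes, a floor at the 25th percentile, an offset of 16, and leaving out saturated probes, muscle genes or, added after seeing the data, probes bright on 1 array. Steps were tested on simulated data. Python 3.11.15, numpy 2.4.6, pandas 2.3.3 and statsmodels 0.14.6 were used.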

Additional observations from a re-analysis of the deposited data

Results flagged for a closer look

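The ob/ob arrays are outside the comparison with lean chow. As deposited, the ob/ob NDGA array had a median of 71.0 and 60 saturated probes, and the ob/ob chow array 38.1 and 16. Values below are normalized, and what part this unequal brightness has in them was not tested. Among muscle genes of the 15 largest wild-type differences, 6 were picked because they read at least 2 times as high on the ob/ob array with NDGA as without. Ryr1, also among those 15, was not picked and read 137 with NDGA and 111 without. Ckm had a normalized intensity of 223 on the ob/ob NDGA array and 13.6 on the ob/ob chow array. In the same order, Cox6a2 had intensities of 194 and 25.01, Ckmt2 of 178 and 23.8, and Mylpf of 253 and 50.5. Mb had 176 with NDGA and 42.3 without, and Fabp3 had 130 and 22.8. The muscle list as a whole did not read higher there: its median log2 difference was -0.08 over 24 expressed genes, near the -0.09 of all 8319 expressed genes, and its summed intensity was 14365 with NDGA and 15589 without. Pvalb, at 875 and 1197, and Fhl1, at 2121 and 2936, ran the other way.

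Mitochondrial beta-oxidation had a median log2 difference of 1.00 between the ob/ob NDGA and ob/ob chow arrays over 17 expressed genes, against -0.09 over all expressed genes. It was not alone: 6 of 52 lists had a median of 0.5 or more there, among them cholesterol synthesis at 0.78, proteasome subunits at 0.70 and peroxisomal beta-oxidation at 0.67. In wild-type liver the mitochondrial median was 0.34 between the NDGA high-fat and chow arrays. The difference between these medians was not tested.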

How the results depend on the processing

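Values were recomputed under 11 other settings wherever the gene or list was still present. Of the named genes at least 2-fold apart, 0 changed sign. Changing the filter or leaving genes out cannot alter a gene's difference, so those settings do not test its sign. The floor at the 25th percentile left the counts at 69 and 54. The higher and lower genes numbered 78 and 49 without normalization, 63 and 73 with median centring and 71 and 52 with loess, against 69 and 54. Median centring moved the share that was higher to 46.3%, and no normalization to 61.4%, against 56.1%. With the filter at the 75th percentile 40 were higher and 40 lower among 4160 genes, and the female-biased median was 0.95. Without a filter medians were 0.020 for female-biased, -0.40 for male-biased, 0.60 for skeletal muscle and 0.14 for adipocyte genes, against 0.28, -0.65, 0.96 and 0.99, since dim genes then entered. The adipocyte median was 0.50 with the mean of probes. The hepatocyte median was -0.44 with median centring, whose cause was not tested. Of 60 named genes at least 2-fold apart, 10 were below 2-fold in some setting, 8 of them with the mean of probes. Leaving out probes bright on 1 array, a setting chosen after seeing the data, gave 61 and 50. No paired analysis was possible because each group has 1 array, and no array could be left out. The number of arrays limits all values, and saturated probes and those near background give bounds.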
